A study of Homo sapiens with 9 samples.

Results

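The genes described here are 10 partners and modifiers of p53 and of its inhibitor HDM2: the acetyltransferases CREBBP, EP300 and KAT5, the ubiquitin enzymes USP7, COP1 and RCHY1, the kinase HIPK2, the adaptor DAXX, the zinc finger protein YY1 and the p53-binding protein TP53BP1. They were chosen by function, but with earlier results of these data known, so their counts are no blind test. Every probe set annotated to exactly 1 of these symbols was taken, which gave 39 of the 49293 probe sets tested. All 10 of these genes, out of 18132 genes with a probe set of their own, were measured. CREBBP had 5 probe sets, EP300 1, KAT5 1, USP7 5, COP1 2, RCHY1 2, HIPK2 9, DAXX 3, YY1 7 and TP53BP1 4.

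RNA came from Y79, an established human retinoblastoma cell line grown in RPMI medium, and was hybridised to 9 expression arrays in 3 groups of 3. Untreated cells (Control) were set against cells exposed to bare gold nanoparticles (GNPs) and against cells exposed to a conjugate of the particles with an HDM2 peptide (GNPs-HDM2, called the conjugate below). The labels write the line as Y97 where they describe the treatments. They name no dose, no time, no sequence of the peptide and no separate cultures, and p-values therefore reflect only how far these arrays scatter, which may be technical scatter. The comparisons ask what the conjugate changes, what the bare particle changes, and how the conjugate differs from the bare particle.

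p53 is a transcription factor that is kept scarce by HDM2, a ubiquitin ligase that binds it and marks it for the proteasome. Enzymes around this pair set how long p53 lasts and what it does: acetyltransferases modify its lysines and open chromatin at its target genes, other ligases and a deubiquitinase add or remove ubiquitin, and kinases change its choice of targets. These are controls of the protein, and the arrays measured only the mRNA of the genes that code for them.

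With the conjugate, 7 of these 10 genes fell against untreated cells and none rose (limma, Benjamini-Hochberg adjusted p under 0.05 over all genes). Among all genes 25.1% fell and 33.1% rose in the same comparison, 58.3% in either direction. That split over all genes was 27.9% lower and 22.9% higher with arrays centred on their medians, and 7.47% and 3.15% after quantile normalization, where 3 of the 10 genes fell. EP300, COP1, RCHY1 and YY1 fell more than 3-fold, CREBBP, USP7 and HIPK2 fell less, and KAT5, DAXX and TP53BP1 did not pass. The median log2 difference was -1.15 for the 10 genes and 0.25 for all genes. All conjugate arrays lay below all untreated arrays in 8 of the 10 genes and above them in 1, beside 23.9% and 36.0% of all genes. With bare particles none of the 10 passed.

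The values are logarithms, assumed to be of base 2, counted from a baseline that each probe set has for itself. They show how arrays differ and not how abundant a transcript was. In such a bulk sample, fewer cells with a transcript and less of it per cell cannot be told apart. Gene values average the probe sets of the gene. Errors of single groups are SD over 3 arrays, and errors of differences are standard errors from the limma fit of all 9 arrays.

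The arrays themselves differed in ways that touch every result here. The median within-group SD of a gene was 0.40 among conjugate arrays, against 0.15 (untreated) and 0.089 (bare particles), while the fit uses 1 spread for all. On simulated data with such spreads and few changed genes, 175 of 318 calls were false for the conjugate against untreated cells. Conjugate replicate 3 lay closest to untreated cells, with a median absolute difference of 0.33 over all genes against 0.73 and 0.90 for replicates 1 and 2. Across genes, untreated replicate 3 correlated with the bare particle arrays at r = 0.50 to 0.63 and with untreated replicates 1 and 2 at -0.06 and 0.24. The step size of the stored numbers shows roughly how strong the baseline signal of a probe set was, and by it probe sets were put into 3 level classes. Conjugate arrays differed from untreated ones by a median of 0.50 in the dim class, 0.18 in the middle class and -1.25 in the bright class. Centring each array within these classes brought the median of all genes from 0.25 to 0.06 and that of the 10 genes from -1.15 to -0.76, while quantile normalization brought all genes to 0.10 and plain median centring to 0.08. Hybridization controls, added to each array in fixed amounts, lay between 1.37 and 1.98 on conjugate arrays and between -0.47 and -0.34 on untreated arrays. The part of these shifts in the results on the 10 genes was not tested beyond the centred values. Of the retinoblastoma and photoreceptor markers, 6 of 12 genes had a bright probe set, as had 2 of 5 Mueller glia markers, and none of the 16 measured fibroblast, blood and pigment epithelium markers had one. With the conjugate, 5 of the 12 retinoblastoma and photoreceptor markers fell, while 3 of 6 fibroblast, 4 of 5 blood and 4 of 5 pigment epithelium markers rose. Of the 5 Mueller glia markers 2 fell and 1 rose. Among all genes 25.1% fell and 33.1% rose. Level class centring brought the median from -0.80 to -0.48 for retinoblastoma and photoreceptor markers and from 0.46 to 0.06 for fibroblast markers. The median went from 0.64 to 0.16 for blood, from 0.68 to 0.38 for pigment epithelium and from 0.36 to -0.05 for Mueller glia. The part of these markers in the results was not tested.

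YY1 binds DNA at a short motif with the core ATGG, so the RefSeq promoter windows of the members (GRCh38.p14, 250 bases before to 50 after each transcript start) were searched for AANATGGC on both strands, where N is any base. It is 1 of 14 motifs searched and is shown because it was in the windows of 5 of the 8 members with a window, a count that was seen before the motif was chosen. The same letters were in 6.58% of all 35116 windows and in a window of 7.97% of genes. Another motif searched, GGGCGG, was in the windows of 7 of the 8 members and of 48.3% of genes. The matches are printed below in the direction of transcription, with the motif or its reverse complement in capitals, and they begin 13 to 33 bases after the start of the transcript.
CREBBP, chr16:3880676-3880705, minus strand: aatcaacagccGCCATCTTgtcgcggaccc
USP7, chr16:8963872-8963901, minus strand: ttcacgccgccGCCATTTTgagagcgagcc
KAT5, chr11:65712254-65712283, plus strand: tggagggagggAAGATGGCggaggtggtga
RCHY1, chr4:75514388-75514417, minus strand: cgtgcttaggaGCCATATTgtcgctagtgg
TP53BP1, chr15:43510591-43510620, minus strand: cgaactgaggggaGCCATCTTgtccctctc
HIPK2 and DAXX had no window. Of the 5 genes with a match, CREBBP, USP7 and RCHY1 fell with the conjugate, and KAT5 and TP53BP1 did not pass. EP300, COP1 and YY1, which had a window and no match, all fell as well. A match is only a run of letters and was not tested for binding.

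The acetyltransferases come first. CREBBP and its paralog EP300 are large coactivators that p53 recruits to its targets and that acetylate both p53 and histones. EP300 stood at -0.69, -0.13 and 0.53 on untreated arrays, at 0.23, 0.14 and 0.27 on bare particle arrays and at -2.16, -2.75 and -1.44 on conjugate arrays. All conjugate arrays lay below all others, while the untreated arrays spread widely around the tight bare particle arrays. The fall against untreated cells was 2.02 on the log2 scale with a standard error of 0.36, which is 4.06-fold lower (limma adjusted p = 0.0030), and 3.33% of genes had a lower difference. EP300 has a single probe set here, of the middle class, so nothing checks it from within the gene. Without untreated replicate 3 its difference was -1.71, still called, and after quantile normalization it was -0.73 and not called (limma adjusted p = 0.198).

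CREBBP stood at 0.14, 0.33 and 0.51 on untreated arrays, at 0.17, 0.20 and 0.27 with bare particles and at -1.43, -1.37 and -0.49 with the conjugate. The groups given the conjugate and left untreated did not overlap, and replicate 3 of the conjugate was the mildest. The difference was -1.42 with an error of 0.24, or 2.68-fold lower (limma adjusted p = 0.00277). Its 5 probe sets did not move together: 3 fell and 2 did not pass. Probe set 11723893_s_at, of the bright class, went from 0.24, 0.68 and 0.06 on untreated arrays to -3.79, -3.75 and -1.62 with the conjugate. Probe set 11740647_a_at, of the middle class, read -0.03, 0.08 and 0.65 and then 0.10, 0.54 and 0.29, so the groups overlapped there. All 3 probe sets of CREBBP that fell carry the suffix _s_at, which marks probes that can match several transcripts, and without such probe sets the gene stood at -0.16 with no call (limma adjusted p = 0.387). The median of its 5 probe sets was lower by less, at -0.54, and was called (adjusted p = 0.0219).

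KAT5, also known as TIP60, acetylates p53 in its DNA-binding domain and is a subunit of a chromatin remodelling complex. It stood at 0.17, -0.24 and -0.06 on untreated arrays, at 0.25, 0.12 and 0.37 with bare particles and at -1.45, -0.71 and 0.13 with the conjugate. The conjugate arrays spanned more than any other group of this gene, and replicate 3 lay among the untreated arrays. The difference of -0.63 had an error of 0.33 and did not pass (limma adjusted p = 0.118). Without conjugate replicate 3 it was -1.03 and was called (adjusted p = 0.00182).

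**Figure D1:**
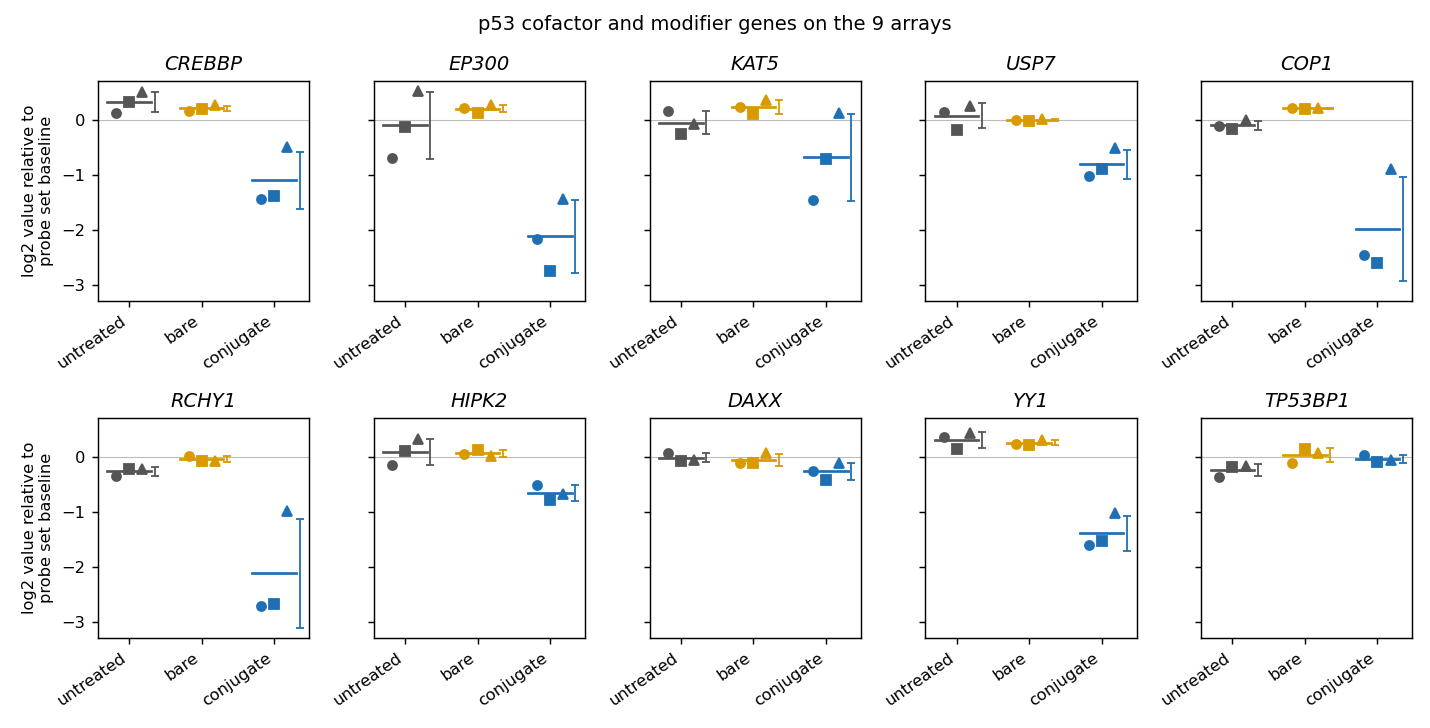
Each panel plots 1 gene, with the log2 value relative to the probe set baseline on the vertical axis and the 3 groups along the horizontal axis. Circles, squares and triangles are replicates 1, 2 and 3, horizontal lines are group means and bars are SD (n = 3 arrays). Conjugate replicate 3 is the highest of its group in 8 of the 10 panels, and in COP1 and RCHY1 it lies at -0.89 and -0.98 while the other conjugate arrays lie below -2.

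The ubiquitin enzymes fell too. RCHY1, also called PIRH2, and COP1 are RING-type ligases that can mark p53 for degradation without HDM2. RCHY1 stood at -0.35, -0.21 and -0.22 on untreated arrays, at 0.03, -0.08 and -0.07 with bare particles and at -2.71, -2.67 and -0.98 with the conjugate. COP1 stood at -0.11, -0.16 and 0.00, then at 0.23, 0.21 and 0.21, and then at -2.45, -2.61 and -0.89. Both genes showed a large fall on conjugate replicates 1 and 2 and a much smaller one on replicate 3, with no overlap with either other group. Against untreated cells RCHY1 fell by 1.86 with an error of 0.39, or 3.63-fold (limma adjusted p = 0.00526). COP1 fell by 1.89 with an error of 0.37, or 3.72-fold (limma adjusted p = 0.00436).

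Both probe sets of RCHY1 fell, with differences of -2.16 and -1.56, the second with overlapping groups because untreated replicate 1 read -0.96 and conjugate replicate 3 read -0.68. Both probe sets of COP1, of the bright class, fell as well, by unequal amounts. Probe set 11718171_a_at changed by -2.72 with an error of 0.46 and 11758554_s_at by -1.07 with an error of 0.33. After each array was centred on its median within level classes, the fall of COP1 shrank from 1.89 to 0.68 (limma adjusted p = 0.0059), and 11758554_s_at stood at 0.15. Quantile normalization left COP1 at the same size, -0.68 (adjusted p = 0.0391). RCHY1 kept -1.31 after the same centring, and after quantile normalization it stood at -0.43 and was not called (limma adjusted p = 0.118).

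USP7, or HAUSP, removes ubiquitin from both p53 and HDM2. It stood at 0.15, -0.18 and 0.26 on untreated arrays and at -1.02, -0.90 and -0.50 with the conjugate, while the bare particle arrays lay between -0.0062 and 0.03. The conjugate arrays were below all others, by less than for the ligases. The fall was 0.88 with an error of 0.18, or 1.85-fold (limma adjusted p = 0.00525). It came from 3 of its 5 probe sets, which fell with differences of -1.87, -1.51 and -1.33, while the other 2 stood at 0.04 and 0.25 without a call. After level class centring the gene stood at -0.54 (adjusted p = 0.0133), and of its probe sets only 11748350_a_at, at -1.99, stayed called lower. After quantile normalization USP7 stood at -0.45 with no call (limma adjusted p = 0.228).

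HIPK2 is a nuclear kinase that phosphorylates p53 after strong DNA damage and pushes it towards apoptosis genes. As a gene it stood at -0.15, 0.10 and 0.33 on untreated arrays, at 0.05, 0.12 and 0.0087 with bare particles and at -0.51, -0.79 and -0.68 with the conjugate. The fall of 0.75 with an error of 0.17, or 1.68-fold (limma adjusted p = 0.00638), averages probe sets that moved in opposite directions. Of the 9 probe sets, 4 fell, 1 rose and 4 did not pass, and their differences ran from -4.06 to 1.08, the widest span among the 10 genes. The lowest, 11719409_a_at, read -0.39, 0.25 and 0.61 on untreated arrays and -4.01, -4.96 and -2.73 with the conjugate, the deepest fall of any of the 39 probe sets (error 0.48, limma adjusted p = 8.47e-04). The probe set that rose, 11752111_a_at of the dim class, went from -0.15, -0.14 and -0.41 to 1.25, 1.18 and 0.11, and after level class centring its rise of 1.08 was 0.60 and not called (adjusted p = 0.0551). With the median of the probe sets in place of the mean, HIPK2 stood at -0.22 and was not called (adjusted p = 0.40), and after quantile normalization it stood at -0.48 and was not called (adjusted p = 0.153).

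**Figure D2:**
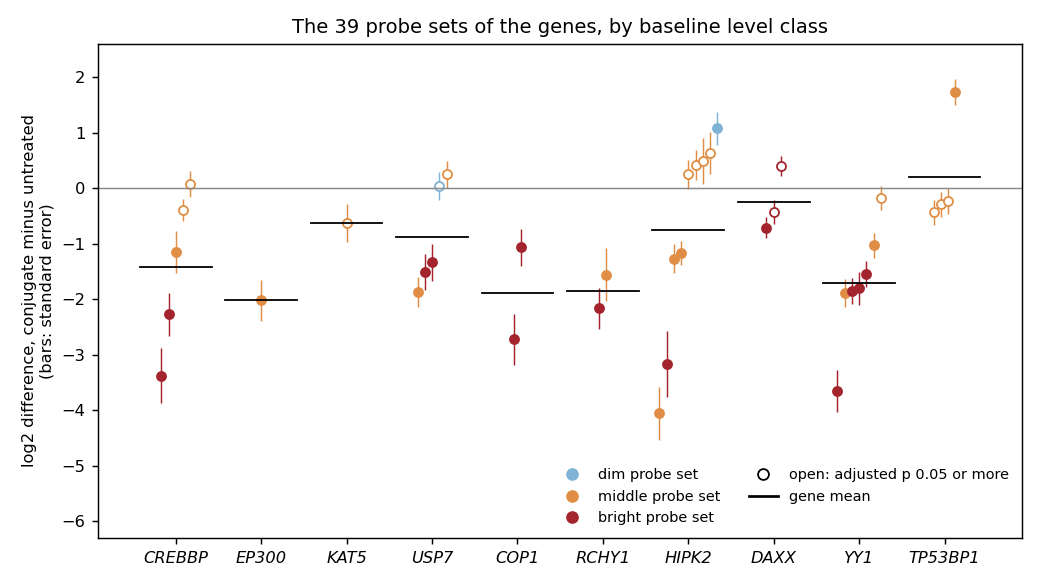
Each point is 1 of the 39 probe sets, grouped by gene along the horizontal axis, with the log2 difference between conjugate and untreated arrays and its standard error on the vertical axis, coloured by baseline level class, and open where limma made no call. Black lines are the gene means; HIPK2 runs from -4.06 to 1.08, and the TP53BP1 probe set at 1.74 stands apart from the other probe sets of its gene.

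Over the 39 probe sets 22 fell, 2 rose and 15 did not pass with the conjugate, where 23.7% of all probe sets fell and 24.9% rose, 48.7% in either direction. By level class, 13 of 15 bright, 9 of 22 middle and none of 2 dim probe sets of these genes fell. The shares of all probe sets that fell were 63.6%, 23.7% and 0.622% in those classes, and the shares that rose were 4.98%, 27.1% and 33.1%. The bright class holds 15 of the 39 probe sets and 8838 of all 49293, so the count of falls is to be read against the shares within classes. The 2 probe sets that rose were 11752111_a_at of HIPK2 and 11759995_at of TP53BP1.

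DAXX is an adaptor that binds p53, HDM2 and USP7, and also a histone chaperone. It moved little, with 0.08, -0.07 and -0.05 on untreated arrays, -0.12, -0.11 and 0.06 with bare particles and -0.25, -0.43 and -0.11 with the conjugate. Its conjugate arrays lay just below the untreated ones, but the difference of -0.25 with an error of 0.15 did not pass (limma adjusted p = 0.165). Without conjugate replicate 3 it was -0.33 and called (adjusted p = 0.0402). All of its 3 probe sets were bright, and 1 of them fell, 11747723_a_at by 0.71 with an error of 0.19 (adjusted p = 0.014). Since bright probe sets as a class stood at -1.25, level class centring turned DAXX to 0.96 and called it higher (adjusted p = 0.0156), and put 11747723_a_at at 0.50 with no call (adjusted p = 0.146).

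YY1 is a zinc finger transcription factor that also binds HDM2 and p53 and promotes the ubiquitination of p53. It had the smallest adjusted p of the 10 genes, with arrays at 0.36, 0.15 and 0.43 in untreated cells, at 0.24, 0.22 and 0.31 with bare particles and at -1.61, -1.54 and -1.03 with the conjugate. The conjugate arrays lay far below the rest, with an SD of 0.32 against 0.14 on untreated and 0.046 on bare particle arrays. The fall was 1.70 with an error of 0.18, or 3.26-fold (limma adjusted p = 7.25e-04). Of its 7 probe sets 6 fell, with differences from -3.65 to -1.03, and 1 did not pass. The deepest was 11758915_a_at, which went from 0.83, 0.46 and 0.72 on untreated arrays to -3.73, -3.27 and -1.94. After level class centring 200047_PM_s_at stood at -0.33 and was not called (limma adjusted p = 0.199), while the others that fell stayed called lower. Against bare particles that centring ended the calls of the bright probe sets 200047_PM_s_at, 11764091_x_at and 11724731_a_at, and left those of the others that fell. YY1 was called lower in each of the 16 other settings tried for this comparison, at -1.06 after level class centring and -1.16 after quantile normalization.

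TP53BP1, or 53BP1, binds p53 and gathers at DNA double-strand breaks, where it steers repair. It stood at -0.36, -0.18 and -0.17 on untreated arrays, at -0.11, 0.15 and 0.07 with bare particles and at 0.04, -0.09 and -0.06 with the conjugate. The conjugate arrays lay just above the untreated ones, a difference of 0.20 with an error of 0.15 that did not pass (limma adjusted p = 0.256). The mean hides probe sets of opposite sign. Probe set 11759995_at read 0.19, 0.00 and -0.62 on untreated arrays, -0.66, -0.40 and -0.39 with bare particles and 1.71, 1.63 and 1.44 with the conjugate, a rise of 1.74 with an error of 0.24 (adjusted p = 0.0013). The other 3 stood at -0.43, -0.29 and -0.23 with no call, and the median of the probe sets was -0.26.

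Bare particles against untreated cells ask what the carrier alone does. None of the 10 genes passed in limma, and none had an unadjusted p under 0.05, beside 0.0221% of all genes called and 972 of 18132 with such a p. The differences ran from -0.11 with an error of 0.24 for CREBBP to 0.31 for EP300 (error 0.36) and 0.31 for COP1 (error 0.37). COP1, RCHY1 and TP53BP1 had all their bare particle arrays above all untreated arrays, which 12.4% of genes did, and no member had them all below. COP1 was tight in that contrast, at 0.23, 0.21 and 0.21 against -0.11, -0.16 and 0.00, and it passed only after quantile normalization (0.69, adjusted p = 0.0326). Of the 39 probe sets none passed either, beside 0.00811% of all. The fit takes 1 spread for all 9 arrays, and the conjugate arrays scatter most. With the 6 arrays of this comparison alone it still called none of the 10, and 3 had an unadjusted p under 0.05, as did 4917 of all 18132 genes. None was called without untreated replicate 3.

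The conjugate was also set against bare particles. No group had particles with another peptide and no dose is named, so an effect of the peptide cannot be told apart from other differences. Hybridization controls lay between -0.58 and 0.13 on bare particle arrays, against 1.37 to 1.98 on conjugate arrays. Bright probe sets differed by a median of -1.39 in this comparison. Here 8 of the 10 genes fell and none rose, where 29.1% of all genes fell and 43.2% rose, 72.3% in either direction. The groups did not overlap in 7 genes, all with the conjugate below, beside 30.5% of all genes below and 45.9% above. EP300 changed by -2.33 with an error of 0.36, or 5.02-fold lower (limma adjusted p = 9.43e-04). COP1 fell 4.60-fold, RCHY1 4.22-fold and YY1 3.13-fold (adjusted p = 0.00135, 0.00188 and 3.38e-04). The differences of COP1, RCHY1 and YY1 were -2.20, -2.08 and -1.65 with errors of 0.37, 0.39 and 0.18. Gaps between genes were not tested, and the order changed with the setting: after level class centring EP300 stood at -2.45, RCHY1 at -1.50, YY1 at -0.96 and COP1 at -0.91.

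CREBBP changed against bare particles by -1.31, USP7 by -0.81 and HIPK2 by -0.72 (limma adjusted p = 0.00181, 0.00405 and 0.00441). After quantile normalization USP7 at -0.45 and HIPK2 at -0.52 were not called, while EP300, COP1 and RCHY1 stayed called at -1.44, -1.37 and -0.95. Without probe sets of the suffixes _s_at and _x_at, CREBBP stood at 0.091 and HIPK2 at -0.41 with no call. The median of the HIPK2 probe sets was -0.17 and was not called (adjusted p = 0.497). KAT5, which did not pass against untreated cells, passed here at -0.92 with an error of 0.33 (limma adjusted p = 0.029), although conjugate replicate 3 lay among the bare particle arrays. Leaving out any 1 of 5 of the 6 arrays compared ended that call, the exception being conjugate replicate 3, and so did a fit of these 6 arrays alone (adjusted p = 0.06). Without conjugate replicate 1, KAT5 stood at -0.53 (adjusted p = 0.096). The 2 comparisons of the conjugate share its arrays, so they are no separate evidence of each other.

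DAXX at -0.21 and TP53BP1 at -0.08 did not pass against bare particles, while some of their probe sets did. The median of the TP53BP1 probe sets was -0.61 and was called lower (limma adjusted p = 0.0103). In TP53BP1, 3 probe sets fell, with differences of -1.05, -0.70 and -0.64, and 11759995_at rose by 2.08 (error 0.24, limma adjusted p = 3.72e-04). In DAXX, 11747723_a_at fell by 0.74 and 11719376_a_at rose by 0.55 (adjusted p = 0.0080 and 0.0220). These opposite directions hold without level class centring, which put them at 0.55 (adjusted p = 0.0967) and 1.84 (adjusted p = 0.00285). Over the 39 probe sets, 26 fell and 3 rose, beside 28.3% and 36.3% of all probe sets and 64.6% in either direction.

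**Figure D3:**
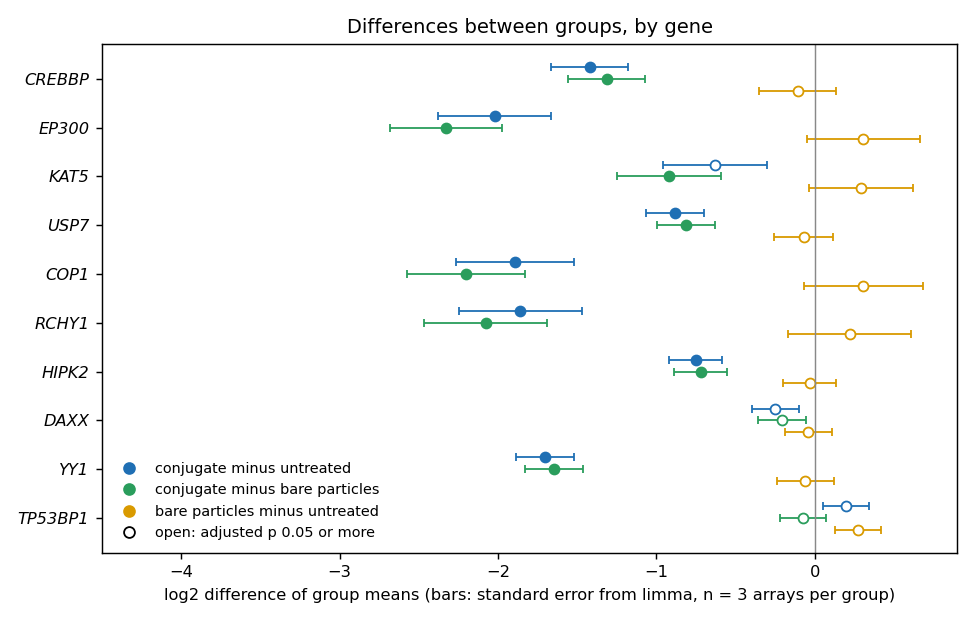
The horizontal axis is the log2 difference of group means with its standard error from limma (n = 3 arrays per group), for each gene and each of the 3 comparisons, and open points had an adjusted p of 0.05 or more. All bare particle points lie between -0.11 and 0.31, and the points of both comparisons that involve the conjugate lie close to each other, from -2.33 to 0.20.

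Other genes of the p53 and HDM2 network were taken from a list sorted by role, also chosen with earlier results of these data known. Of its 65 genes 59 were measured. Against untreated cells 38 fell, 3 rose and 18 did not pass, with a median of -0.87 beside 0.25 for all genes. Of all genes 25.1% fell and 33.1% rose, and the counts by role below are to be read beside these shares. MDM2, which codes for HDM2, stood at -0.35 with an error of 0.15 and MDM4, its relative HDMX, at -0.29 with an error of 0.32, and neither passed (limma adjusted p = 0.0634 and 0.426). Level class centring put MDM2 at -0.48 with a call (adjusted p = 0.0182) and turned MDM4 to 0.47 (adjusted p = 0.11).

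Level class centring brought the list median from -0.75 to -0.29 for acetylation, from -0.60 to -0.28 for ubiquitin and from -0.83 to -0.31 for methylation. That of kinases and phosphatases went from -1.24 to -1.31. Of 10 acetylation genes, 7 fell and none rose. SIRT1, a deacetylase of p53, changed by -1.20 with an error of 0.23 and KAT6A, an acetyltransferase, by -0.96 with an error of 0.22. Among 13 genes listed under ubiquitin and related roles, PIAS1 and CDKN2A included, 7 fell and none rose. The smallest adjusted p were those of TRIM24, a ligase that targets p53 (-2.39 with an error of 0.30, or -1.17 after level class centring), and UBE4B, which extends ubiquitin chains on p53 (-1.10 with an error of 0.17). The list of kinases and phosphatases, which also holds the scaffold protein AXIN1, had 10 measured genes, of which 8 fell. Among those were the p53 kinase DYRK2 (-1.92 with an error of 0.24) and PRKDC, the catalytic subunit of DNA-dependent protein kinase (-2.18 with an error of 0.35). HIPK3, a relative of HIPK2, rose by 0.79 (error 0.28, limma adjusted p = 0.0355) and lost the call after level class centring (0.31, adjusted p = 0.285).

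Of 8 methylation genes 6 fell and 1 rose. The demethylase KDM1A stood at -1.57 with an error of 0.30, and the methyltransferase SETD7 at -0.61 with an error of 0.15. L3MBTL1, a reader of methylated lysines, rose by 0.48 (limma adjusted p = 0.0429). Of 16 binding partners 10 fell and 1 rose, and their median of -1.01 became -0.14 after level class centring. BRD7, a bromodomain partner of p53 and EP300, changed by -1.84 with an error of 0.31 and TP53BP2, which steers p53 to apoptosis genes, by -1.27 with an error of 0.21. PML, which forms the nuclear bodies where DAXX, HIPK2 and CREBBP gather, rose by 0.58 (error 0.19, limma adjusted p = 0.025), and stayed at 0.52 after level class centring (adjusted p = 0.0281). That centring ended the calls of KAT6A (-0.28), KDM1A (-0.36) and L3MBTL1 (0.18) as well.

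**Figure D4:**
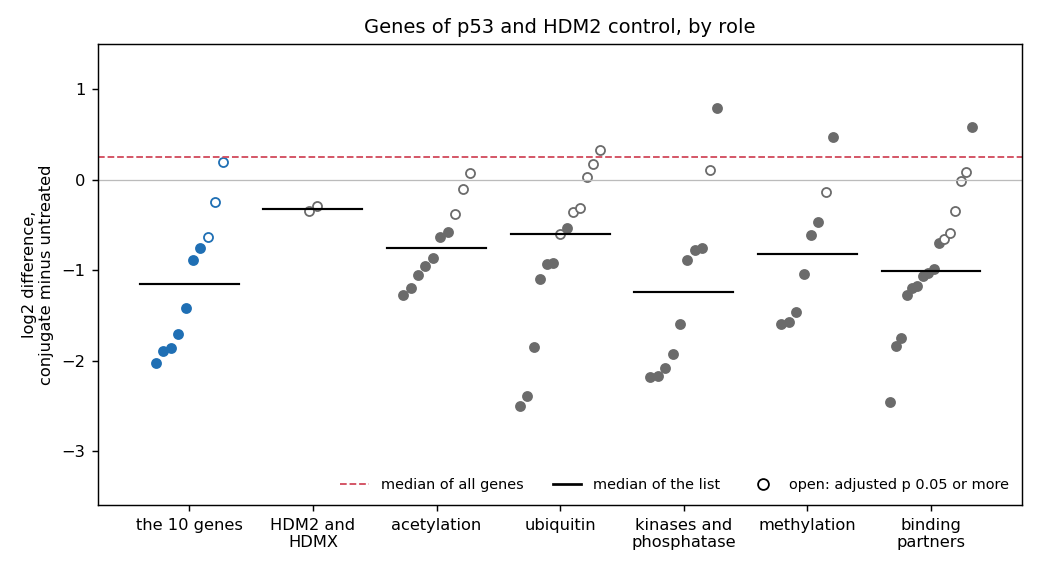
Points are genes, with the log2 difference between conjugate and untreated arrays on the vertical axis and the role lists along the horizontal axis; filled points passed limma, black lines are list medians and the dashed line is the median of all genes at 0.25. Medians of the lists run from -1.24 for kinases and phosphatases to -0.32 for HDM2 and HDMX, and that of the 10 genes is -1.15.

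Against bare particles the network list gave 37 falls and 3 rises among 59 genes, with a median of -0.84 beside 0.30 for all genes. Of all genes 29.1% fell and 43.2% rose in that comparison. The named genes kept their sign, for example TRIM24 at -2.31, DYRK2 at -1.74, BRD7 at -2.04, HIPK3 at 1.17 and PML at 0.78. CHEK1, the checkpoint kinase, stood at -2.47 and the deacetylase HDAC2 at -1.26. With bare particles against untreated cells none of the 59 passed, beside 0.0221% of all genes.

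Across the 9 arrays, each gene was set beside the network list to find the profile most like it. COP1 and RCHY1 were most like DTL, a substrate adaptor of a cullin ligase (Pearson r = 0.996 and 0.990), YY1 and USP7 most like DYRK2 (0.99 for both), and CREBBP and EP300 most like PRKDC (0.99 and 0.98). KAT5 was most like ING1, a reader of histone methylation (0.95), HIPK2 most like BRD7 (0.92) and DAXX most like BANP, a chromatin protein that binds p53 (0.91). These values include the step between the conjugate arrays and the others, and 58.3% of all genes were called against untreated cells. How much of each correlation that step carries was not tested. TP53BP1 had no close match, its highest being CDKN2A, the locus of the HDM2 inhibitor ARF, at 0.42, and it was also the gene whose correlation with each other member was below 0. The highest correlation between members was that of COP1 with RCHY1 (0.997).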

How the data were processed

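The authors deposited log2 values of 9 arrays in a single table. Base 2 is assumed, and the summarizing tool is not given in the sources used here. In 59.7% of probe sets at least 1 array held an exact 0, so values are relative to a probe set baseline. After removal of 102 array controls, 49293 of 49395 probe sets were tested. By the platform annotation 44988 had 1 symbol, 1832 several and 2473 none.

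Gene means of single-symbol probe sets were tested with limma 3.58.1 in R 4.3.3 (lmFit, eBayes, 2-sided, 3 comparisons, Benjamini-Hochberg over all genes, or over all probe sets where one is named). Level classes (baseline 2 to 4, 4 to 8 and 8 or more) were read from the step size of the stored numbers. Both steps were tested on simulated data. Groups of unequal spread gave more false calls there than the threshold allows in the comparisons of the conjugate. Of 318 calls 175 were false for the conjugate against untreated cells, and 152 of 300 against bare particles. For bare particles against untreated cells 2 of 138 were false. Few genes were changed in that simulation, so these shares do not carry over directly to the counts here.

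Members and lists were chosen with earlier results of these data known. All members are named, and of the network list MDM2, MDM4, up to 2 rising and 2 falling genes per role with the smallest adjusted p, and the best match of each member. Probe sets, and the motif, were singled out after their values were seen. Deviations from group means of same-numbered conjugate and untreated arrays correlated at r = 0.16, 0.11 and 0.29. Differently numbered arrays of these groups ran from -0.25 to 0.21, the highest being untreated replicate 1 with conjugate replicate 2. The values therefore do not show that arrays are paired by number, and the replicate block is given only as an alternative. In the other pairs of groups, same-numbered arrays correlated between -0.06 and 0.10. Alternatives are given in the closing section.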

Additional observations from a re-analysis of the deposited data

How the results depend on the processing

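Settings tried were quantile normalization, median centring, level class centring, no dim probe sets, the median of probe sets, no _s_at or _x_at probe sets, the 2 groups alone, the replicate block, 1 weight per group, trend with robust, and leaving out each of 6 arrays. The count of the 10 genes called with the conjugate against untreated cells was 7, and 3 after quantile normalization, where 1927 of all genes were called in place of 10566. It was 8 under level class centring, 1 of them higher, 6 with the median of probe sets and 6 without _s_at and _x_at probe sets. Of all genes 44.7%, 54.4% and 54.7% were called under those settings, in that order, and 58.3% in the main fit. The 2 groups alone gave 6439 genes and 1 weight per group 6699, each with 7 of the 10, and leaving out an array gave 6524 to 14045. The count of the 10 genes was 7 to 9 when an array was left out. For bare particles the count was 0, or 1 after quantile normalization (2780 of all genes in place of 4; 61 with the 2 groups alone and 714 with 1 weight per group), and 0 when an array was left out. Against bare particles it was 8, 7 to 8 when an array was left out and 6 after quantile normalization. It was also 6 without _s_at and _x_at probe sets, and 9 under level class centring, 1 of them higher. Of all genes 72.3% were called in that comparison, and 59.4% to 83.0% when an array was left out. The share of all genes was 51.1% after quantile normalization, 70.7% without those probe sets and 57.1% under level class centring. With the replicate block the counts were 7, 0 and 8, beside 57.6%, 0.0165% and 71.4% of all genes, and no call on the 10 genes changed. Median centring moved the difference of the conjugate from untreated cells by 0.16 towards lower values in every gene.

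Signs turned for DAXX under level class centring (0.96 against untreated cells, 1.08 against bare particles) and for TP53BP1 with the median of probe sets (-0.26 against untreated cells). Against bare particles they turned for TP53BP1 after quantile normalization (0.016) and without _s_at and _x_at probe sets (0.13), and for CREBBP without those probe sets (0.091). For bare particles against untreated cells, with no call, they turned for USP7 without dim probe sets (0.0029), YY1 with the median of probe sets (0.013) and HIPK2 after quantile normalization (0.042). When an array was left out, USP7 ranged from -0.20 to 0.021, HIPK2 from -0.15 to 0.085 and DAXX from -0.10 to 0.0031 there. Array values carry no depth, and the number of arrays limits the precision.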
